A study of Arabidopsis thaliana with 4 samples.

Results

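The 42 nuclear genes for the antenna and subunit proteins of photosystem I (PSI) and photosystem II (PSII) were read out of 33557 loci measured by RNA-seq in Arabidopsis thaliana seedlings. They were taken by locus identifier. They comprise 9 genes of the major antenna of PSII (LHCB1, LHCB2 and LHCB3), 5 of its minor antenna (LHCB4 to LHCB6), 6 of the antenna of PSI (LHCA), 12 PSI subunit genes (PSA) and 10 PSII subunit genes (PSB). Seedlings of the mutant mos2-2, which carries the T-DNA insertion SALK_033856 in MOS2, were compared with Col-0 wild-type seedlings, with 2 libraries of each genotype numbered replicate 1 and 2. The mutant line is in the Col-0 background, and it is a single insertion line. All plants were 14 days old and had grown under 16 h of light and 8 h of dark. RNA came from whole seedlings and was purified on Oligotex beads, which retain poly(A) RNA, before Illumina GAIIx sequencing. The labels give no hour of harvest and leave unstated whether libraries of one genotype came from separate plantings, so a p-value here measures only the spread between libraries, which may be technical. In RNA from whole seedlings, fewer green cells and less transcript per green cell cannot be told apart.

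Light-harvesting proteins bind chlorophyll a and b and pass the absorbed energy to the reaction centres of the photosystems. LHCB1, LHCB2 and LHCB3 form the antenna trimers of PSII, LHCB4 to LHCB6 link those trimers to its core, and LHCA1 to LHCA4 form the belt of PSI. The reaction centre proteins are encoded in the chloroplast, while the antenna and many peripheral subunits are encoded in the nucleus and imported. Transcripts of the nuclear genes are known to depend on light, on the state of the chloroplast and on the circadian clock, with antenna transcripts highest in the day.

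Because the LHCB2 genes varied most between libraries and PSBR, an abundant gene, varied little, the 250 bases before the annotated gene start are given below for the 3 LHCB2 genes, for LHCB1.1 and for PSBR. They are RefSeq sequence of the TAIR10.1 build, 5′ to 3′ on the gene's strand, and capitals mark a searched motif, of which the LHCB2.2 and PSBR windows held none. The windows are chr2:1824481-1824730 on the minus strand for LHCB2.1, chr2:1800473-1800722 on the minus strand for LHCB2.2 and chr3:10255656-10255905 on the plus strand for LHCB2.3. That of LHCB1.1 is chr1:10475970-10476219 on the minus strand and that of PSBR is chr1:29735702-29735951 on the plus strand.
LHCB2.1: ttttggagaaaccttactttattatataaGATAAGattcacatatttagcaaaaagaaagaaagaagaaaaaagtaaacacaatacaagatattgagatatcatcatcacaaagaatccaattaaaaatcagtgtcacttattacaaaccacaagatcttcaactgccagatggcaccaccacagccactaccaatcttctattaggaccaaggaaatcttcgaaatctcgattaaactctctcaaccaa
LHCB2.2: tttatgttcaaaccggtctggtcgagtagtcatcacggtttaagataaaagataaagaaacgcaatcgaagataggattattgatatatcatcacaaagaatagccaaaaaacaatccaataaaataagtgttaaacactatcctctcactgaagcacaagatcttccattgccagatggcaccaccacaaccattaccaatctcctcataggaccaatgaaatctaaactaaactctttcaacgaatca
LHCB2.3: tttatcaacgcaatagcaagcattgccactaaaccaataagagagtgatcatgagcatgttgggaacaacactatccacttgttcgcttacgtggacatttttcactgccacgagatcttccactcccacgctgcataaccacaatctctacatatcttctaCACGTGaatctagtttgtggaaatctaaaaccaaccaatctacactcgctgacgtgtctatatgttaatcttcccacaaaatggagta
LHCB1.1: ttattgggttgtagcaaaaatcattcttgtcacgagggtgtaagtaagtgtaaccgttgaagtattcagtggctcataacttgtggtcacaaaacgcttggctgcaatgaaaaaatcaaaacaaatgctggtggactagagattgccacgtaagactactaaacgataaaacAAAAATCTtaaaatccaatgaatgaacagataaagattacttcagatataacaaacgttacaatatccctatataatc
PSBR: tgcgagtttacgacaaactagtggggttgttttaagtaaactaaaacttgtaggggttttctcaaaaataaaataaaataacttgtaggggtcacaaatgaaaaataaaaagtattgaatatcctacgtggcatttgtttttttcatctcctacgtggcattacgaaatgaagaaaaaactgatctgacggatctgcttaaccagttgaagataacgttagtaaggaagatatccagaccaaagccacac

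Between the LHCB2.1 and LHCB2.2 windows, 58.6% of bases were identical in a global alignment, and the longest exact match was the 20-base run tgccagatggcaccaccaca, from -86 to -67 in LHCB2.1 and from -80 to -61 in LHCB2.2. Letters were searched on both strands in all 42 windows and in the 27443 windows of nuclear protein-coding genes. The G-box CACGTG was found in 8 members (19.0%) and in 6.5% of all windows, and in LHCB2.3 it began at -88. The I-box core GATAAG was found in 9 members (21.4%) and 12.3% of all windows, and in LHCB2.1 it began at -221. The letters AAAAATCT, one form of the binding site of the clock protein CCA1, were found in LHCB1.1 (at -78), LHCB1.4, LHCA4, PSAN and PSAO, or 11.9% of members, and in 6.7% of all windows. The other form, AACAATCT, was found in PSAE-2 alone among the members and in 1.8% of all windows. The evening element AAATATCT was found in LHCA5 alone and in 4.8% of all windows. These motifs do not overlap one another in the printed windows. A match describes letters and is not a measured binding site.

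Values are FPKM as deposited, a level per length of transcript and relative to the size of the library. In each sentence replicate 1 is given before replicate 2. The summed FPKM was 1388613 and 1522916 in mos2-2 and 1350292 and 1393563 in Col-0, and 22411 to 23009 loci were above 0 per library. Estimated from the size of the smallest steps between low values, the depth of Col-0 replicate 1 was 0.629 of that of Col-0 replicate 2, while mos2-2 stood at 1.01 and 1.04. The least covered member still had an estimated 140 reads in Col-0 replicate 1 (LHCB2.3, a counting error of 8.5%). MOS2 (AT1G33520), an RNA-binding protein gene, was at 2.16 and 1.16 FPKM in mos2-2, against 50.3 and 36.9 FPKM in Col-0, which fits the labels. Its limma adjusted p was 0.0727. The locus AT3G41979, which encodes 5.8S rRNA, had 73081 and 76744 FPKM in mos2-2, against 23211 and 20656 FPKM in Col-0, and its part in the differences below was not tested.

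The 42 genes were among the most abundant transcripts of these seedlings. By mean level over the libraries, 30 of them ranked among the 100 highest of 33557 loci and 39 among the 400 highest. LHCB1.3 ranked 5 and PSBR ranked 6. The lowest were LHCA6 at rank 918, LHCA5 at 1179 and LHCB4.3 at 3025. Summed, the 42 genes held 8.89% and 12.1% of all FPKM in mos2-2, against 4.81% and 12.0% in Col-0. Col-0 replicate 1 stood low, and the other 3 libraries lay closer together. The mean share was 10.5% ± 2.25 in mos2-2 and 8.39% ± 5.06 in Col-0 (SD, n = 2 each), and an exact two-sided permutation test gave p = 0.667. The ratio of the mean shares was 1.25, against 0.876 without Col-0 replicate 1 and 2.18 without Col-0 replicate 2. With 2 libraries against 2 this test cannot go below 0.333.

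**Figure D1:**
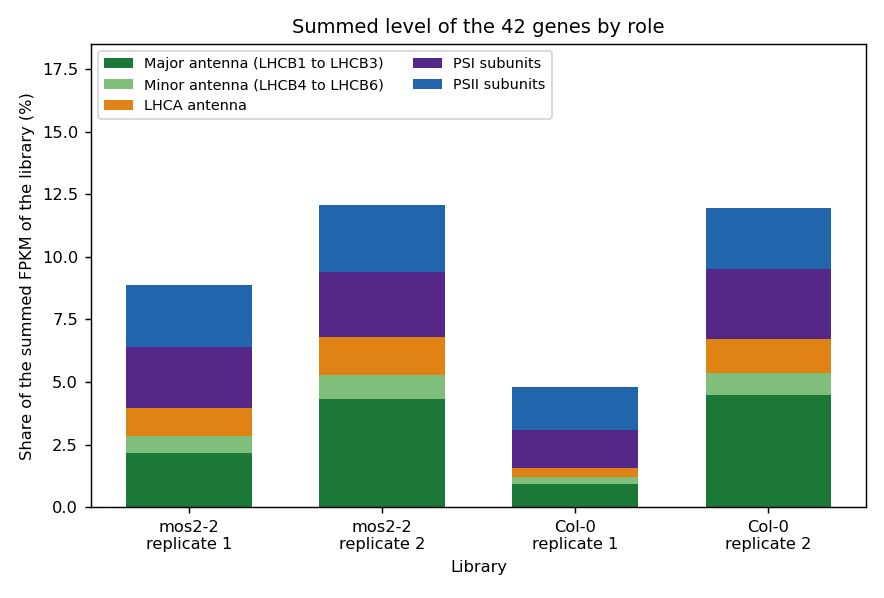
Summed FPKM of each role group as a percent of the library's total FPKM, by library, with mos2-2 left of Col-0. All 42 members sum to 8.89% and 12.1% in mos2-2 and to 4.81% and 12.0% in Col-0, with Col-0 replicate 1 lowest.

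By genotype, 40 of the 42 genes (95.2%) had a higher mean in mos2-2 on the log2(FPKM + 1) scale, against 40.6% of all genes tested. The 2 exceptions were LHCB4.3 and PSBQ-2. The median difference was 0.51, against -0.09 over the 19236 genes tested. No member passed a Benjamini-Hochberg adjusted p of 0.05 in limma, where 0.0624% of all genes passed. At an unadjusted p below 0.05 there was 1 member, LHCA6, or 2.38%, against 7.02% of all genes. Both mos2-2 libraries lay above both Col-0 libraries in 14 members (33.3%), against 13.1% of all genes. Non-overlap in either direction was no more frequent in the members (33.3%) than in all genes (37.8%), and in no member did both mos2-2 libraries lie below both Col-0 libraries. Without Col-0 replicate 1 the median difference was -0.07, with 19 members higher and 23 lower in mos2-2, and without Col-0 replicate 2 it was 1.09.

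The members shared their lowest library more than a full order, and the commonest order of the 4 libraries held in 16 of them. Col-0 replicate 1 was the lowest library in 37 of the 42 genes (88.1%), against 17.2% of all genes tested, and mos2-2 replicate 2 was the highest in 30. The genes in which Col-0 replicate 1 was not lowest were LHCB4.3, LHCA5, LHCA6, PSBQ-1 and PSBS, and in those 5 Col-0 replicate 2 was lowest. In 25 genes (59.5%) both libraries numbered 2 lay above both libraries numbered 1, against 11.7% of all genes, and the reverse was seen in none. These 25 were all 9 major antenna genes, 3 minor antenna genes, 3 LHCA genes, 7 PSI subunit genes and 3 PSII subunit genes. The numbers are not a stated pairing of libraries, and what sets same-numbered libraries apart was not tested.

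**Figure D2:**
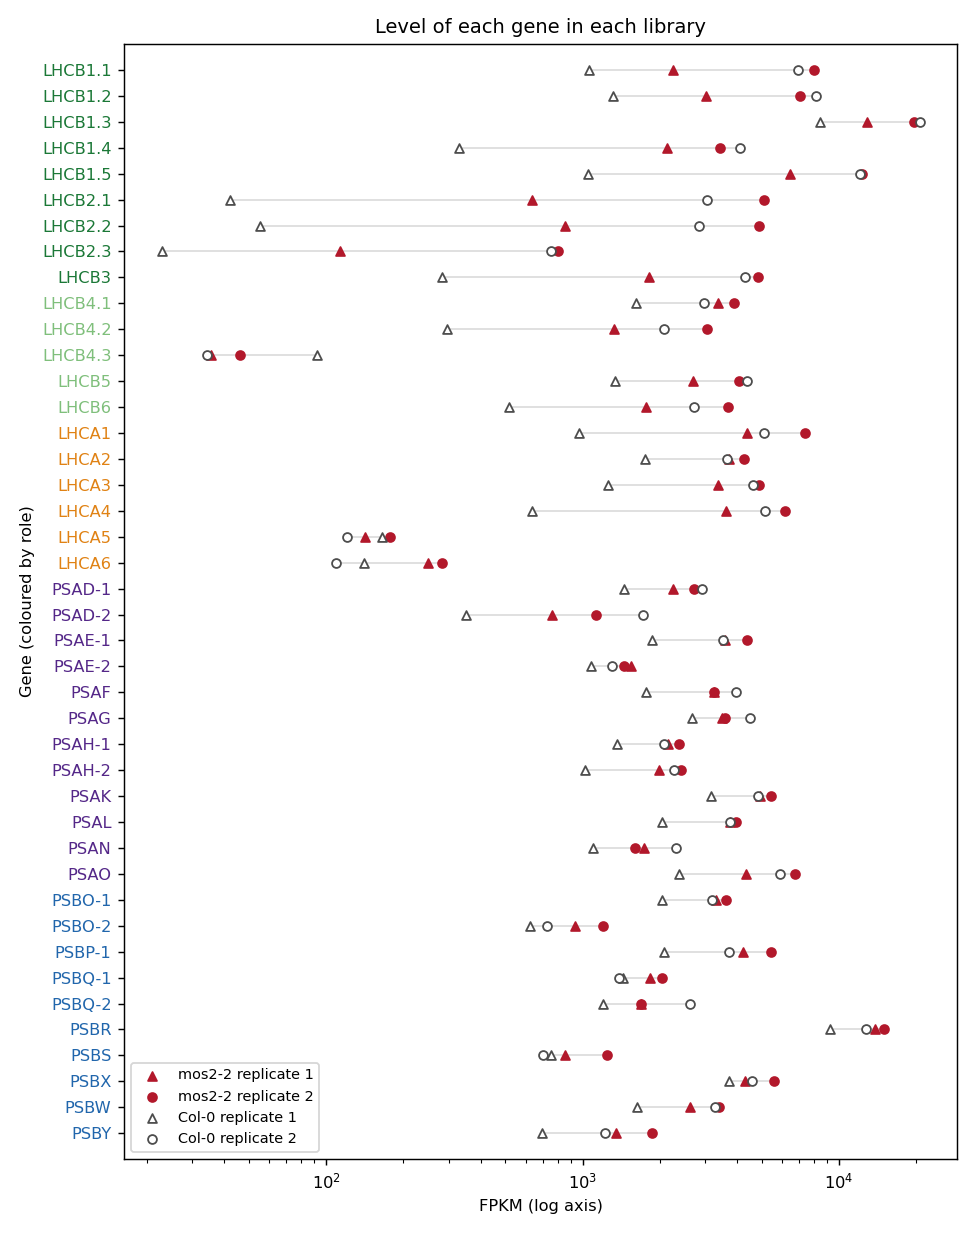
FPKM (log axis) of each of the 42 genes in the 4 libraries, grouped by role, with 1 point per library. The points of Col-0 replicate 1 lie lowest in 37 genes, and the spread is widest for LHCB2.1 and LHCB2.2.

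The step between the replicates of a genotype was wider in Col-0 than in mos2-2. Replicate 2 stood above replicate 1 by a median log2 of 0.37 (1.3-fold) in mos2-2 and of 1.06 (2.09-fold) in Col-0, while the medians over all genes tested were -0.09 in mos2-2 and -0.16 in Col-0. Replicate 2 was at least 2-fold above replicate 1 in 8 members in mos2-2, where 5.47% of all genes were, and in 24 members in Col-0, where 5.71% of all genes were. The step was the wider one in Col-0 for 38 members (90.5%), against 56.4% of all genes. Across the 42 genes the step in mos2-2 and the step in Col-0 followed each other, with Spearman's rho of 0.708, against 0.212 over all genes tested. This is a description over genes that share the same 4 libraries. The distance between replicates exceeded that between genotype means in 16 members for mos2-2 and in 37 members for Col-0. Of all 19236 genes tested, it did so in 10483 for mos2-2 and in 11573 for Col-0. The share was thus lower in the members than in all genes for mos2-2, and higher for Col-0.

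The size of the step differed by role. For the major antenna the median log2 step was 1.41 in mos2-2 and 3.63 in Col-0, and for the minor antenna it was 0.60 in mos2-2 and 1.70 in Col-0. For LHCA it was 0.43 in mos2-2 and 1.47 in Col-0. For the PSI subunits it was 0.14 in mos2-2 and 0.96 in Col-0, and for the PSII subunits 0.37 in mos2-2 and 0.55 in Col-0. In both genotypes it was widest for the trimer genes, and in both genotypes the subunit genes stood nearest to 0.

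**Figure D3:**
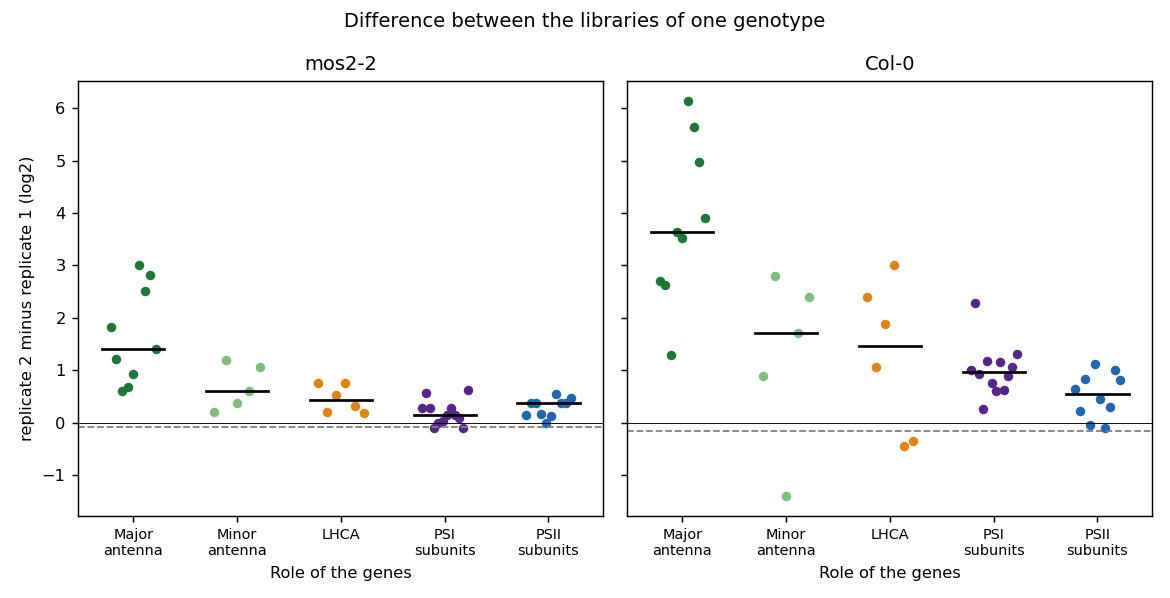
Replicate 2 minus replicate 1 on the log2(FPKM + 1) scale within mos2-2 and within Col-0 for each member, coloured by role. In 38 of the 42 genes the step is wider in Col-0, and the major antenna genes reach 3.01 in mos2-2 and 6.14 in Col-0.

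Set against the library of the same number, the genotype difference lay mostly in replicate 1. There the median log2 difference was 0.91, 40 members were higher in mos2-2, and 18 (42.9%) were at least 2-fold higher, against 3.75% of all genes. Those 18 were 8 of 9 major antenna genes, 4 of 5 minor antenna genes, 4 of 6 LHCA genes, 1 of 12 PSI subunit genes and 1 of 10 PSII subunit genes. Between the libraries numbered 2 the median was 0.19, 32 members were higher in mos2-2, and LHCA6 alone was at least 2-fold higher, against 3.52% of all genes. LHCB4.3 was at least 2-fold lower in mos2-2 in replicate 1, and in replicate 2 no member was.

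**Figure D4:**
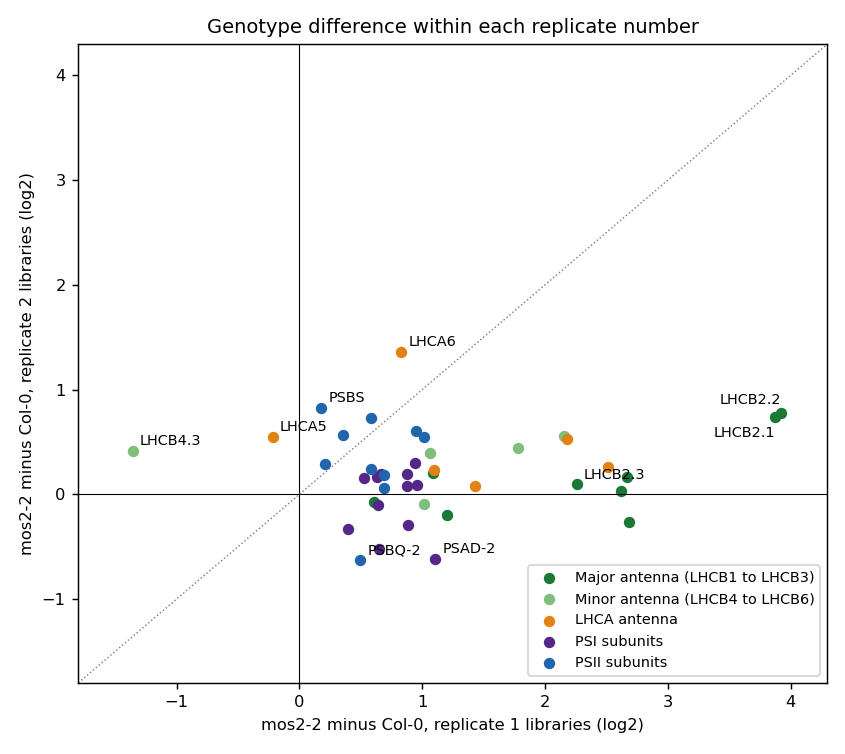
Log2 difference mos2-2 minus Col-0 between the libraries numbered 1 (horizontal) and between those numbered 2 (vertical), 1 point per member, coloured by role. The horizontal spread reaches 3.92 for LHCB2.2, while the vertical values stay between -0.63 and 1.36.

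Among the major antenna genes the LHCB2 genes varied most. LHCB2 proteins are phosphorylated when the antenna moves between the photosystems in state transitions. LHCB2.1 (AT2G05100), a minus-strand gene of chromosome 2 (1822990 to 1824480 in TAIR10.1), was at 632 and 5084 FPKM in mos2-2, against 42.2 and 3051 FPKM in Col-0. Within mos2-2 replicate 2 was 8.05 times replicate 1, and within Col-0 it was 72.3 times. LHCB2.2 (AT2G05070), on the same strand of chromosome 2 (1799234 to 1800472), was at 852 and 4858 FPKM in mos2-2, against 55.4 and 2834 FPKM in Col-0. The libraries stood in the same order for both genes, and the genotypes overlapped. The log2 difference of LHCB2.1 was 2.31 (SE 2.22), with a limma adjusted p of 0.846, and that of LHCB2.2 was 2.35 (SE 2.01). Without Col-0 replicate 1 both changed sign, to -0.77 for LHCB2.1 and -0.48 for LHCB2.2. LHCB2.3 (AT3G27690), on chromosome 3, was the least abundant of the 3, at 113 and 804 FPKM in mos2-2, against 22.9 and 752 FPKM in Col-0. Summed over the 3 genes, the family stood at 1597 and 10745 FPKM in mos2-2, against 120.5 and 6637 FPKM in Col-0. The coding sequences of LHCB2.1 and LHCB2.2 are 96.6% identical, and 22.7% and 28.2% of their 50-base stretches occur in the other gene, so the division of reads between them is uncertain. Of the stretches of LHCB2.3, 38.6% are shared, largely with the overlapping AT3G27700, and the strand setting of the counting is not stated.

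LHCB1 proteins are the most abundant part of the trimers, and their genes varied less than LHCB2. LHCB1.3 (AT1G29930) was the highest member of all, at 12871 and 19579 FPKM in mos2-2, against 8449.7 and 20583 FPKM in Col-0. LHCB1.1 (AT1G29920) was at 2252 and 8000.1 FPKM in mos2-2, against 1061 and 6932 FPKM in Col-0. LHCB1.2 (AT1G29910) was at 3018 and 7042 FPKM in mos2-2, against 1311 and 8099.9 FPKM in Col-0. These 3 genes lie within one cluster on chromosome 1, from 10472280 to 10479114. In each the libraries numbered 2 were high and those numbered 1 low in both genotypes. LHCB1.4 (AT2G34430) was at 2133 and 3427 FPKM in mos2-2, against 330.5 and 4105 FPKM in Col-0. LHCB1.5 (AT2G34420) was at 6438 and 12276 FPKM in mos2-2, against 1047 and 12026 FPKM in Col-0. This pair lies on chromosome 2, and in both Col-0 replicate 1 stood far below the other 3 libraries. LHCB1.3 made up 48.2% and 38.9% of LHCB1 in mos2-2, against 69.3% and 39.8% in Col-0, while LHCB1.5 made up 24.1% and 24.4% in mos2-2, against 8.58% and 23.2% in Col-0. The coding sequences of LHCB1.1 to LHCB1.3 are 95.6% to 96.4% identical and those of LHCB1.4 and LHCB1.5 91.4%, and 10.6% to 22.3% of the 50-base stretches of each gene are shared, so values of single LHCB1 genes are uncertain. The whole family summed to 26712 and 50324 FPKM in mos2-2, against 12199 and 51746 FPKM in Col-0.

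LHCB3 (AT5G54270), which occurs in trimers with LHCB1 and LHCB2, was at 1809 and 4811 FPKM in mos2-2, against 284 and 4298 FPKM in Col-0. Its genotype difference was 1.42 on the log2 scale with overlap. Over the 9 major antenna genes the median difference was 1.21. All 9 were higher in mos2-2 by their means, none without overlap, and none was at an unadjusted p below 0.05. Without Col-0 replicate 1 all 9 were lower in mos2-2, with a median of -0.60, and without mos2-2 replicate 2, 5 were higher and 4 lower. Within the libraries numbered 2 the median difference was 0.10, and 6 of the 9 were higher in mos2-2.

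The minor antenna genes had a smaller median step than the trimer genes, and in 3 of the 5 both libraries numbered 2 lay above both numbered 1. LHCB4.1 (AT5G01530), one of the CP29 genes, was at 3372 and 3902 FPKM in mos2-2, against 1616 and 2977 FPKM in Col-0, and it was the single gene of this group in which the genotypes did not overlap. LHCB4.2 (AT3G08940), another CP29 gene, was at 1325 and 3051 FPKM in mos2-2, against 296 and 2068 FPKM in Col-0. LHCB4.3 (AT2G40100), the least abundant CP29 gene, differed from the others, at 35.5 and 46.3 FPKM in mos2-2, against 92.4 and 34.5 FPKM in Col-0. It was highest in Col-0 replicate 1, the library in which most other members were lowest, and it made up 4.61% of LHCB4 there, against 0.661% to 0.75% in the other 3 libraries. LHCB5 (AT4G10340), which encodes CP26, was at 2704 and 4085 FPKM in mos2-2, against 1338 and 4355 FPKM in Col-0. LHCB6 (AT1G15820), which encodes CP24, was at 1771 and 3677 FPKM in mos2-2, against 514 and 2713 FPKM in Col-0. Both had overlapping genotypes with Col-0 replicate 1 lowest. The median log2 difference of the 5 genes was 0.73, and without Col-0 replicate 1 it was -0.04, with 2 genes higher and 3 lower in mos2-2.

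The LHCA genes of the PSI belt divided into 4 abundant and 2 scarce members. LHCA1 (AT3G54890) was at 4386 and 7368 FPKM in mos2-2, against 968 and 5093 FPKM in Col-0. LHCA4 (AT3G47470), its partner in a dimer, was at 3623 and 6155 FPKM in mos2-2, against 635 and 5120.1 FPKM in Col-0. LHCA3 (AT1G61520) was at 3374 and 4885 FPKM in mos2-2, against 1252 and 4617 FPKM in Col-0. In all 3 Col-0 replicate 1 was lowest and the genotypes overlapped. LHCA2 (AT3G61470), the partner of LHCA3, was at 3735 and 4273 FPKM in mos2-2, against 1749 and 3646 FPKM in Col-0, without overlap. The scarce members, LHCA5 (AT1G45474) and LHCA6 (AT1G19150), are known as linkers between PSI and the chloroplast NDH complex. LHCA5 was at 142 and 178 FPKM in mos2-2, against 166 and 121 FPKM in Col-0, with overlap. LHCA6 was at 250.1 and 283 FPKM in mos2-2, against 140.1 and 109 FPKM in Col-0. Both mos2-2 libraries stood above both Col-0 libraries, and the replicates lay close together in each genotype. LHCA6 averaged 266 ± 23 FPKM in mos2-2 and 125 ± 21.8 FPKM in Col-0 (SD, n = 2 each). Its log2 difference was 1.1 (SE 0.29), with a limma p of 0.0132 that did not pass after adjustment over all genes (adjusted p = 0.633). Over the 6 LHCA genes the median log2 difference was 0.93 and all 6 were higher in mos2-2 by their means, and without Col-0 replicate 1 the median was 0.14, with 4 higher and 2 lower.

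The PSI subunit genes had smaller median steps than the antenna genes. PSAD, PSAE and PSAF bind or dock the electron carriers ferredoxin and plastocyanin. PSAD-1 (AT4G02770) was at 2252 and 2718 FPKM in mos2-2, against 1448 and 2915 FPKM in Col-0. PSAD-2 (AT1G03130) was at 757 and 1124 FPKM in mos2-2, against 352 and 1722 FPKM in Col-0, with the mutant values between those of the Col-0 libraries in both genes. PSAE-1 (AT4G28750) was at 3593 and 4367 FPKM in mos2-2, against 1870.1 and 3540.0 FPKM in Col-0, and PSAE-2 (AT2G20260) was at 1549.8 and 1443 FPKM in mos2-2, against 1077 and 1299 FPKM in Col-0. Neither PSAE gene overlapped between genotypes. PSAF (AT1G31330) was at 3240.4 and 3246 FPKM in mos2-2, against 1759 and 3972 FPKM in Col-0, so that the mutant libraries were nearly equal and both lay between those of Col-0. PSAH, PSAL and PSAO lie on the side of PSI where the mobile antenna docks. PSAH-1 (AT3G16140) was at 2156 and 2374 FPKM in mos2-2, against 1362 and 2080.1 FPKM in Col-0, and PSAH-2 (AT1G52230) was at 1992 and 2426 FPKM in mos2-2, against 1025 and 2278 FPKM in Col-0. PSAH-1 did not overlap between genotypes and PSAH-2 did. Of the 50-base stretches of PSAH-1, 49.2% are shared, mostly with the overlapping AT3G16130. PSAL (AT4G12800) was at 3743 and 3965 FPKM in mos2-2, against 2036 and 3761 FPKM in Col-0, and PSAO (AT1G08380) was at 4352 and 6711 FPKM in mos2-2, against 2366 and 5872 FPKM in Col-0. Both were lowest in Col-0 replicate 1, and the genotypes overlapped in both. PSAG (AT1G55670) and PSAK (AT1G30380), whose proteins lie next to the antenna belt, and PSAN (AT5G64040), on the lumen side, make up the rest. PSAG was at 3496 and 3581 FPKM in mos2-2, against 2660.0 and 4507 FPKM in Col-0. PSAK was at 4911 and 5436 FPKM in mos2-2, against 3162 and 4846 FPKM in Col-0. PSAN was at 1727 and 1601 FPKM in mos2-2, against 1102 and 2302 FPKM in Col-0. PSAK alone of these 3 did not overlap. Over the 12 genes the median log2 difference was 0.37, with values from 0.03 to 0.62, and all 12 were higher in mos2-2 by their means on the log2 scale. Without Col-0 replicate 1 the median was -0.09, with 5 higher and 7 lower. By mean FPKM, PSAD-2, PSAG and PSAN were lower in mos2-2, with ratios of 0.907, 0.9875 and 0.9776.

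Of the 10 PSII subunit genes 7 did not overlap between genotypes, all with mos2-2 higher, where 13.1% of all genes tested lay that way and 37.8% did not overlap in either direction. The median log2 difference was 0.45, and without Col-0 replicate 1 it was 0.27, with 8 genes higher and 2 lower in mos2-2. PSBO, PSBP and PSBQ form the oxygen-evolving extrinsic proteins. PSBP-1 (AT1G06680) was at 4205 and 5439 FPKM in mos2-2, against 2084 and 3719 FPKM in Col-0, and PSBO-1 (AT5G66570) was at 3299.8 and 3637 FPKM in mos2-2, against 2046 and 3197 FPKM in Col-0. PSBO-2 (AT3G50820) was at 929.6 and 1205 FPKM in mos2-2, against 621 and 725 FPKM in Col-0. In PSBP-1, PSBO-1 and PSBO-2 both mos2-2 libraries stood above both Col-0 libraries. PSBQ-1 (AT4G21280) was at 1832 and 2044 FPKM in mos2-2, against 1431 and 1384 FPKM in Col-0, also without overlap. PSBQ-2 (AT4G05180) was at 1686 and 1686 FPKM in mos2-2, against 1196 and 2611 FPKM in Col-0, with nearly equal mutant values lying between those of Col-0. PSBR (AT1G79040), which helps hold the extrinsic proteins, was at 13766 and 14935 FPKM in mos2-2, against 9213 and 12673 FPKM in Col-0. PSBS (AT1G44575), the sensor of excess light in energy quenching, was at 852 and 1244 FPKM in mos2-2, against 754 and 701 FPKM in Col-0. The genotypes overlapped in neither PSBR nor PSBS. The small membrane subunits PSBX (AT2G06520), PSBW (AT2G30570) and PSBY (AT1G67740) followed. PSBX was at 4297 and 5567 FPKM in mos2-2, against 3721 and 4562 FPKM in Col-0. PSBW was at 2617 and 3411 FPKM in mos2-2, against 1622 and 3268 FPKM in Col-0. PSBY was at 1345 and 1862 FPKM in mos2-2, against 697 and 1225 FPKM in Col-0. PSBY alone of these 3 did not overlap. The largest log2 differences were 0.78 for both PSBP-1 and PSBY, with limma adjusted p of 0.76 or more over all genes. Summed, the 10 genes held 2.51% and 2.69% of all FPKM in mos2-2, against 1.73% and 2.44% in Col-0. These shares did not overlap, and the exact two-sided permutation p was 0.333, the smallest this design can give.

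Set against the subunits of their own photosystem, the antenna genes shifted with the replicate number. The summed LHCB level was 1.13 and 1.97 times that of the PSII subunits in mos2-2, against 0.704 and 2.2 times in Col-0. The summed LHCA level was 0.459 and 0.593 times that of the PSI subunits in mos2-2, against 0.243 and 0.478 times in Col-0. Both ratios were lowest in Col-0 replicate 1. The exact two-sided permutation p between genotypes was 1.0 for the LHCB ratio and 0.667 for the LHCA ratio.

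**Figure D5:**
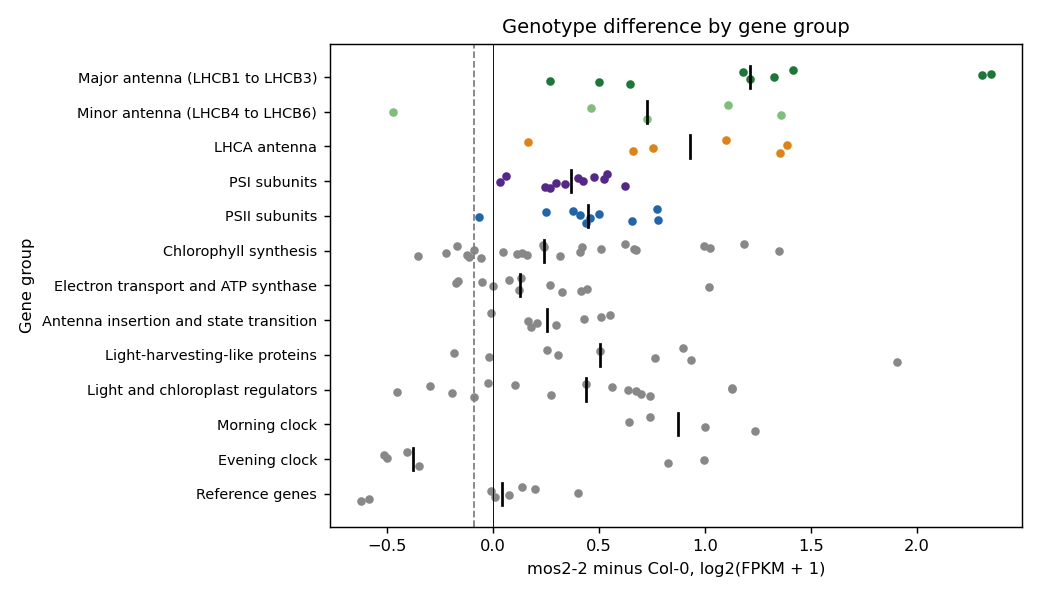
Log2 difference mos2-2 minus Col-0 of each gene in the role groups and in the other lists of the pathway, with the median of each list as a bar and that of all genes tested (-0.09) as a line. The medians of the 5 role groups run from 1.21 in the major antenna to 0.37 in the PSI subunits.

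Genes that build, insert or regulate the antenna were read as further lists, and none in the lists that follow passed the adjusted threshold in limma. As background for their counts, 40.6% of all genes tested were higher in mos2-2. Of 24 chlorophyll synthesis genes 17 were higher in mos2-2 and 7 were lower. The median log2 difference was 0.24, and 8 did not overlap, all higher, where 13.1% of all genes tested did so. At an unadjusted p below 0.05 there were 2, where 7.02% of all genes were, so this count is near the background. They were PORC, a light-dependent protochlorophyllide reductase, at 194 and 176 FPKM in mos2-2, against 87.9 and 96.8 FPKM in Col-0, and CHLI2, a subunit of magnesium chelatase, at 69.8 and 60.2 FPKM in mos2-2, against 43.3 and 38 FPKM in Col-0. CHLI1, another form of that subunit, was at 307 and 276 FPKM in mos2-2, against 178 and 188 FPKM in Col-0. CHLM, the magnesium protoporphyrin methyltransferase, was at 342 and 383 FPKM in mos2-2, against 259 and 249 FPKM in Col-0. In these 4 the replicates of a genotype lay close together and the genotypes did not overlap. The step between replicates went both ways in this list. Both libraries numbered 2 lay above both numbered 1 in 5 genes, against 11.7% of all genes. They lay below both numbered 1 in another 5, as in 5001 of all 19236 genes tested. The median log2 step was -0.19 in mos2-2 and 0.11 in Col-0.

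Of 12 genes of electron transport and the ATP synthase, 8 were higher in mos2-2 and 4 were lower (median log2 difference 0.13). Their median log2 replicate step was -0.026 in mos2-2 and -0.155 in Col-0. Summed, they stood at 14450 and 14540 FPKM in mos2-2, against 12530 and 11120 FPKM in Col-0. FD1, a leaf ferredoxin that accepts electrons from PSI, was at 488 and 679 FPKM in mos2-2, against 368 and 218 FPKM in Col-0, without overlap. Of 8 genes of antenna insertion and state transitions, 7 were higher and 1 was lower (median 0.25). The median log2 replicate step of these 8 was -0.172 in mos2-2 and -0.004 in Col-0. STN8, a kinase of PSII core proteins, was at 27.9 and 29.8 FPKM in mos2-2, against 22.5 and 16.6 FPKM in Col-0. Both mutant libraries of STN8 lay above both of Col-0.

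Of 15 light and chloroplast regulators 10 were higher in mos2-2 and 5 were lower (median 0.44), and in 8 of the 15 both libraries numbered 2 lay above both numbered 1, against 11.7% of all genes. PIF1, a repressor of chlorophyll synthesis in the dark, was at 15.7 and 16.4 FPKM in mos2-2, against 6.59 and 14 FPKM in Col-0. COP1, a ubiquitin ligase that represses light responses in the dark, was at 14.3 and 16.4 FPKM in mos2-2, against 9.69 and 12.6 FPKM in Col-0. PHYB, a red light receptor, was at 9.35 and 14.1 FPKM in mos2-2, against 5.59 and 9.94 FPKM in Col-0. PIF5, a related factor, was at 54.7 and 115 FPKM in mos2-2, against 18.1 and 70.3 FPKM in Col-0. In each of these 4 Col-0 replicate 1 was lowest, while some other regulators of the list were highest there. In PIF1 and COP1 both mutant libraries lay above both Col-0 libraries. They were the only 2 of the 15 to do so, where 13.1% of all genes tested did, so this count is near the background.

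The 4 morning clock genes were also lower in the libraries numbered 1. CCA1, a morning clock transcription factor that binds antenna promoters, was at 0.76 and 24.2 FPKM in mos2-2, against 0.485 and 4.41 FPKM in Col-0. LHY, its close relative, was at 0.644 and 4.8 FPKM in mos2-2, against 0.088 and 1.2 FPKM in Col-0. PRR9, a clock repressor, was at 0.724 and 10.9 FPKM in mos2-2, against 0.126 and 6.51 FPKM in Col-0, and PRR7 was at 21.1 and 38.5 FPKM in mos2-2, against 5.04 and 50.7 FPKM in Col-0. In all 4 both libraries numbered 2 lay above both numbered 1, with a median log2 step of 2.31 in mos2-2 and 2.3 in Col-0. The 6 evening genes did not share one direction between genotypes, with a median step of -1.12 in mos2-2 and 0.53 in Col-0. Both libraries numbered 2 lay above both numbered 1 in PRR5, against 11.7% of all genes. They lay below both numbered 1 in TOC1 and ELF3, as in 5001 of all 19236 genes tested. Between the libraries numbered 1, 5 of the 6 were higher in mos2-2, and between those numbered 2 all 6 were lower. GI was at 17.6 and 11 FPKM in mos2-2, against 1.29 and 29.9 FPKM in Col-0. PRR5 was at 46.2 and 62.4 FPKM in mos2-2, against 6.45 and 101 FPKM in Col-0, while TOC1 was at 67.9 and 14.5 FPKM in mos2-2, against 46.1 and 35.8 FPKM in Col-0. In GI and PRR5 Col-0 replicate 1 was lowest and Col-0 replicate 2 highest, and TOC1 was highest in mos2-2 replicate 1 and lowest in mos2-2 replicate 2. Whether the clock genes have a part in the steps of the members was not tested.

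Of 11 root markers 3 passed the filter on low values. SCR and SHR were lower in both mos2-2 libraries than in both Col-0 libraries, and ESB1 overlapped. Of all 19236 genes tested, 4757 lay lower in mos2-2 without overlap. SHR was at 3.38 and 6.69 FPKM in mos2-2, against 9.08 and 6.73 FPKM in Col-0, nearly equal in the libraries numbered 2. EXPA7, EXPA18 and RHD6 were listed at 0 in every library, and COBL9, WER, CASP1 and MYB36 stayed below 1 FPKM in every library. The whole root list summed to 10.96 and 16.61 FPKM in mos2-2, against 19.21 and 15.42 FPKM in Col-0. It was highest in Col-0 replicate 1, where the summed members were lowest. SHR at 9.08 FPKM and SCR at 6.01 FPKM made up most of the root sum in that library. The part of root tissue in the steps was not tested. Of 8 reference genes 5 were higher in mos2-2 and 3 were lower. Their median log2 difference was 0.04, with median replicate steps of -0.15 in mos2-2 and -0.06 in Col-0.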

How the data were processed

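Poly(A) RNA-seq of 2 mos2-2 and 2 Col-0 libraries was analysed from FPKM values per gene as deposited. The authors made them with TopHat and Cuffdiff on TAIR10, per the submitters' processing notes. Not given in the sources used here are program versions, the use of strand and the handling of multiply matching reads, so near-identical genes may exchange reads. FPKM is relative to the size of a library, and read counts were not used. An exact 0 can be a failed estimate and is described as listed at 0.

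The 42 members were matched by locus identifier, and all had a mean of at least 1 FPKM. That minimum left 19236 genes, on which limma 3.58.1 (R 4.3.3) was run with log2(FPKM + 1), genotype as sole term and a mean-variance trend. Tests were two-sided, with Benjamini-Hochberg adjustment over all of these genes and a threshold of 0.05. This scale understates the change of low genes. The fit was tested on simulated data. Single values per library were compared by exact permutation of libraries. Depth was estimated from the steps between low FPKM values. Symbols of the lists, coordinates, lengths and upstream windows came from the RefSeq annotation of TAIR10.1, which held 32810 of the 33557 loci. Identity was computed with Biopython 1.88.

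All members may be named. Each other list is given by its counts and up to 4 genes with the smallest unadjusted p, while clock genes and root markers may all be named. The members and lists were chosen with earlier results of these data known. No 2 libraries held identical values. Alternatives were other pseudocounts, filters and scalings, no trend, a minimum gene length, a replicate block, and leaving out each library. Chloroplast-encoded genes were not analysed here.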

Additional observations from a re-analysis of the deposited data

How the results depend on the processing

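No member passed the adjusted threshold in limma under any alternative run. Among all genes 12 passed as reported. A pseudocount of 5 gave 4, no filter gave 4, no trend gave 7 and a minimum of 300 nt gave 0. Leaving out 1 library gave 0 to 0, in fits with 1 residual degree of freedom that take the lone library to vary as the other genotype does. Over all genes, the median log2 difference was -0.09 with the deposited values, 0.01 after quantile normalization and 0.00 with median-ratio scaling. Members split into 39 higher and 3 lower with quantile normalization, where PSAG was at -0.192, and into 41 and 1 with median-ratio scaling, where PSBQ-2 was at 0.038. In the other alternatives that keep all libraries the split was 40 and 2. The ratio of summed shares was 1.39 with the minimum of 300 nt and 1.24 with quantile normalization. In the other alternatives that keep all libraries it was 1.25.

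The genotype direction of the members as a set depended on Col-0 replicate 1, but not in every role group. Without that library 19 members were higher and 23 lower in mos2-2, with 8 of 10 PSII subunit genes and 4 of 6 LHCA genes still higher. The median difference was then -0.07 (range with 1 library left out -0.07 to 1.091). The ratio of summed shares, 1.25 with all libraries, was 0.876 (range 0.876 to 2.18). Members without overlap numbered 14 with all libraries, all higher in mos2-2, and 14 to 41 with 1 left out. There were 31 without mos2-2 replicate 1, all higher. Without Col-0 replicate 1 there were 26, of which 16 were higher and 10 lower. Without Col-0 replicate 2 there were 41, of which 40 were higher and 1 lower. The share over all genes is not given for these runs, so these counts stand without a background. A genotype with a lone library overlaps less often by construction. The log2 differences that changed sign had these ranges: LHCB1.1 -0.707 to 2.0, LHCB1.2 -0.813 to 1.813, LHCB1.3 -0.375 to 0.91, LHCB1.4 -0.602 to 3.029, LHCB1.5 -0.436 to 3.085, LHCB2.1 -0.767 to 5.377, LHCB2.2 -0.478 to 5.174, LHCB2.3 -1.311 to 3.665, LHCB3 -0.543 to 3.373, LHCB4.2 -0.041 to 2.758, LHCB4.3 -1.169 to 0.228, LHCB5 -0.39 to 1.312, LHCB6 -0.088 to 2.309, LHCA3 -0.185 to 1.696, LHCA4 -0.117 to 2.893, LHCA5 -0.058 to 0.39, PSAD-1 -0.237 to 0.772, PSAD-2 -0.9 to 1.389, PSAF -0.292 to 0.882, PSAG -0.349 to 0.412, PSAH-2 -0.051 to 1.099, PSAN -0.469 to 0.593, PSAO -0.12 to 1.191, PSBQ-2 -0.631 to 0.495, PSBW -0.13 to 0.881. Of these, 23 changed sign without Col-0 replicate 1. LHCB1.1, LHCB1.2, LHCB1.3, LHCB2.3 and PSAD-2 also changed sign without mos2-2 replicate 2. Among the runs with 1 library left out, LHCA5 and PSBQ-2 changed sign only without Col-0 replicate 2, to -0.058 and 0.495. The causes were not tested. MOS2 was lower in mos2-2 in every alternative run. Counting error was at most 8.5% for a member, by estimated reads.

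The genotypes share replicate numbers, but no label says that a number marks a shared batch or day. Deviations of same-numbered libraries from their genotype means correlated with r = 0.211 over all genes tested and 0.861 over the 42 members. With 2 libraries per genotype this is the Pearson form of the relation between replicate steps given above, not a separate observation. It is a description over genes of 4 libraries. A fit with the replicate block called 6 genes among all genes and 0 members, and the smallest adjusted p of a member was 0.427.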

Other observations

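Light-harvesting-like proteins, relatives of the antenna that mostly act under light stress or in assembly, were read as a further list. Of 9 genes 7 were higher in mos2-2 and 2 were lower, where 40.6% of all genes tested were higher. Their median log2 difference was 0.51, 4 were higher and 1 lower without overlap, where 37.8% of all genes tested did not overlap in either direction, and none passed the adjusted threshold in limma or an unadjusted p of 0.05. OHP (AT5G02120), a light-harvesting-like protein with a single membrane helix, was at 268 and 383 FPKM in mos2-2, against 189 and 187 FPKM in Col-0, without overlap. LHCB7 was at 8.98 and 18.3 FPKM in mos2-2, against 5.74 and 7.22 FPKM in Col-0, without overlap. ELIP1, an early light-induced protein, was at 1.12 and 13.1 FPKM in mos2-2, against a listed 0 and 1.13 FPKM in Col-0. Over the whole list the median replicate step on the log2 scale was 0.52 in mos2-2 and -0.02 in Col-0. GLK2, a transcription factor known to activate antenna genes, was at 32.1 and 177 FPKM in mos2-2, against 20.9 and 95.5 FPKM in Col-0. GLK1, its relative, was at 50.4 and 87 FPKM in mos2-2, against 43.4 and 114 FPKM in Col-0. Both were higher in the libraries numbered 2 in each genotype. They were named after their values were seen.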
